A study of Mus musculus with 8 samples.

Results

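The potassium channel genes of the mouse heart were the 83 genes on the array whose symbol starts with Kcn and is followed by letters and a number, out of 27689 gene names and unnamed probes in all. The rule reads the symbol and uses no signal values. They comprise 35 voltage-gated pore-forming subunits, 11 accessory subunits of voltage-gated channels, 14 inward rectifiers, 11 tandem-pore leak channels and 12 channels opened by calcium or sodium, counted with their accessory subunits. Together they were covered by 122 probes, with 1 probe for 50 genes, 2 for 27 and 3 for 6, and the probe of highest mean signal represented each gene. Hearts came from male mice aged 12 weeks, 4 labelled WT and 4 labelled as overexpressing PKR2, with 1 array for each mouse. PKR2 was taken to mean prokineticin receptor 2, which signals through G proteins. The promoter and cell type that drive the overexpression, the strain and the form of the WT controls are not given in the sources used here. The arrays are named WT 1 to WT 4 and PKR2 1 to PKR2 4, where the number is only a name and pairs no mice.

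Potassium channels end the cardiac action potential and hold the resting potential of heart muscle cells. In the mouse ventricle, fast transient outward channels and slower Kv channels carry most of the repolarising current, whereas the hERG and KvLQT1 channels that dominate in larger mammals contribute less. Inward rectifiers set the resting potential, couple it to acetylcholine in the atria and, as ATP-sensitive channels, to the energy state of the cell. Accessory subunits change the traffic of many of these channels to the membrane or their gating.

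Of the 83 genes, 61 had a start-site window in a RefSeq promoter table (assembly GRCm38.p6, 250 bases before to 50 after the start), with 86 windows in all because some genes have several starts. The windows of a few members that the results turn on are shown 5′ to 3′ in the direction of transcription. Kcnd2 and Kcnip2 encode the pore and an accessory subunit of 1 current and differed in their order over the arrays, Kcnj8 had the smallest WT to PKR2 interval of them, and Kcnc4 was among the members of smallest p. The capitals mark GGGCGG or its reverse complement CCGCCC, a GC box. The windows lie at chr6:21215096-21215395, plus strand, for Kcnd2, chr19:45816014-45816313, minus strand, for Kcnip2, chr6:142571565-142571864, minus strand, for Kcnj8 and chr3:107458849-107459148, minus strand, for Kcnc4.
Kcnd2: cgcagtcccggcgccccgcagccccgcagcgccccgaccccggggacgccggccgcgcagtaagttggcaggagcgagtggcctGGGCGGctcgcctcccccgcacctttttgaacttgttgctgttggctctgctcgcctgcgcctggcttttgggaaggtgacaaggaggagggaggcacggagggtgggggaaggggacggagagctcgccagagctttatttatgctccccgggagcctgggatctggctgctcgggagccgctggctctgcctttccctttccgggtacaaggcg
Kcnip2: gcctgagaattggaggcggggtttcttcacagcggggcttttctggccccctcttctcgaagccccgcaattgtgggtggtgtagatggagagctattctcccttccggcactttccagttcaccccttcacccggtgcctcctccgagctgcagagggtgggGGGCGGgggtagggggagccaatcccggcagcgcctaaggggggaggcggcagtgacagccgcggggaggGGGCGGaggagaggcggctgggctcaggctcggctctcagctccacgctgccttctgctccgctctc
Kcnj8: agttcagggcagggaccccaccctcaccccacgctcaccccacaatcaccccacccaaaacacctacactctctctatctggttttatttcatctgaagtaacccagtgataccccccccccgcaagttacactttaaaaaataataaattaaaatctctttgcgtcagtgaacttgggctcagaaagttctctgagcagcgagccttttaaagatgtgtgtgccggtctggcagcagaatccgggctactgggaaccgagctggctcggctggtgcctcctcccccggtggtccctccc
Kcnc4: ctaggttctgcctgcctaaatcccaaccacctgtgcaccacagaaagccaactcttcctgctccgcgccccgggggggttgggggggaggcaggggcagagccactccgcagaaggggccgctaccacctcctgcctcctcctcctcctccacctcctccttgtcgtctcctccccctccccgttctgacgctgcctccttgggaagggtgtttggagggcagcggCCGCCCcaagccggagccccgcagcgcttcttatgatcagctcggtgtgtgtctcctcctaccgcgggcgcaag

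The GC box was present on either strand in 48.8% of the members' 86 windows and in 35.6% of all 32817 windows. Among the printed windows it occurred once in Kcnd2 and Kcnc4 and 2 times in Kcnip2, and these letters were not in the Kcnj8 window. TATAAA on either strand occurred in 4.65% of the members' windows and 13.6% of all windows, and the palindrome CACGTG in 6.98% and 7.15%. The GC box was found in 40% of 20 windows of members well above background on all 8 arrays and in 50% of 22 windows of members well above background on no array. The median base composition was 58.2% G or C over the members' windows and 52.7% over all windows. These matches describe letters in a window, and several windows of 1 gene can overlap.

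Signal here is log2 processed intensity minus the array's own 75th percentile, so that 0 is that percentile, and means are given with the SD of 4 arrays. Signals of different probes cannot be ranked against each other. The 75th percentile ran from 40.9 on WT 2 to 770 on PKR2 1, and WT 2, WT 4 and PKR2 4 had been scanned without the extended range of the others. A pair of arrays, WT 1 and PKR2 1, stood apart together: in 37.6% of the 13570 features well above background on all 8 arrays, both lay below or both above the other 6. Of the marker lists, the fibroblast score (mean centred log2 signal) was -0.46 on WT 1 and -0.42 on PKR2 1 and lay between -0.02 and 0.31 on the others, and the adipocyte score was -2.23 on PKR2 1 and -1.99 on PKR2 2 against -0.05 to 1.21 on the others. Ventricular and atrial cardiomyocyte markers passed the detection filter in full, 7 of 7 in each list. In whole-heart RNA, fewer cells of a type and less RNA per cell cannot be told apart. Slides 5 and 6 each held 1 array of both groups, and all PKR2 arrays sat at position 4, as did WT 1, so that position and genotype can be told apart only through WT 1.

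Fewer members than features in general were detected on all 8 arrays, while the shares detected on none were similar. A probe well above background by the scanner software's own flag was found on all 8 arrays for 25 of the 83 genes (30.1%), on 1 to 7 arrays for 34 and on none for 24 (28.9%). Over all features the same shares were 49.0% on all 8 arrays and 30.3% on none. Counted per array, the members well above background ranged from 26 on WT 2 to 39 on WT 3 among WT arrays and from 34 on PKR2 2 to 52 on PKR2 1 among PKR2 arrays. The share of all spots well above background was lowest and highest on the same arrays, 48.3% on WT 2 and 67.1% on PKR2 1, and its part in these counts was not tested. With the scanner's looser flag, a signal positive and significant against background, 41 members were detected on all 8 arrays.

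**Figure D1:**
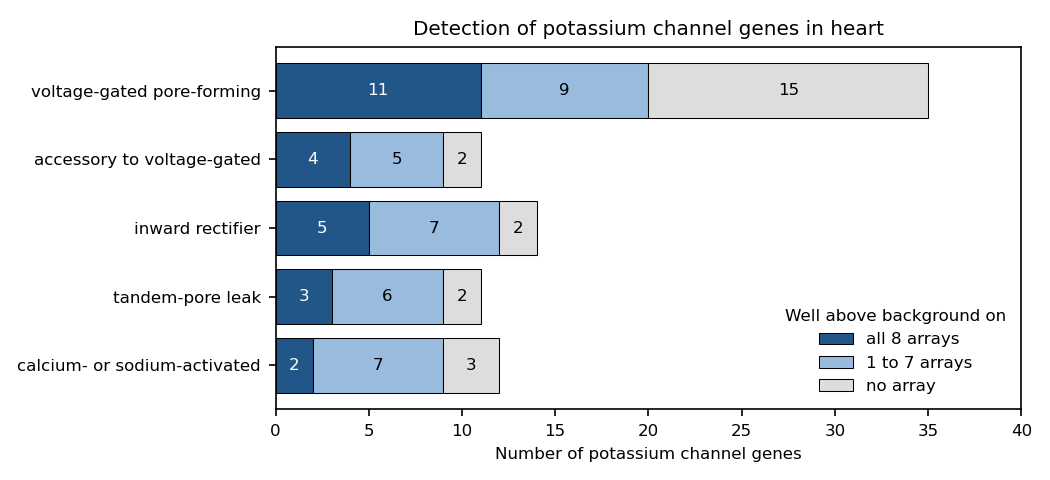
Number of potassium channel genes (horizontal axis) in each family, divided by whether their brightest probe was well above background on all 8 arrays, on 1 to 7 arrays or on no array. The voltage-gated pore-forming subunits include 11 genes on all 8 arrays and 15 on none.

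Among the 35 voltage-gated pore-forming genes, the 11 on all 8 arrays included Kcna5, Kcna6, Kcnd2, Kcnd3, Kcng2, Kcnh2, Kcnh6, Kcnq1 and Kcnv2. The 15 on no array included Kcna2, Kcna3, Kcnb2, Kcnd1, Kcnf1, Kcng3, Kcng4, Kcnh1, Kcnh5, Kcnh7, Kcnh8, Kcns1, Kcns2 and Kcnv1. Of 11 accessory genes, Kcnab1, Kcnab2, Kcne1 and Kcnip2 were on all 8 arrays, and Kcnab3 and Kcnip4 on none. The 14 inward rectifiers had Kcnj3, Kcnj8, Kcnj11, Kcnj12 and Kcnj15 on all 8 arrays and Kcnj1 and Kcnj16 on none. Kcnk3, Kcnk6 and Kcnk13 were the tandem-pore genes on all 8 arrays, and Kcnk5 and Kcnk16 were on none. Of the 12 calcium- or sodium-activated genes, Kcnn1 and Kcnn2, which encode small-conductance channels, were on all 8 arrays. Kcnma1, the pore of the large-conductance BK channel, and the BK accessory genes Kcnmb2 and Kcnmb3 were on none. A probe not well above background sets only an upper limit on the transcript, so none of these genes is shown to be unexpressed. Probes of a gene could also differ in this. Kcnab1, Kcne1, Kcnj3 and Kcnj15 each had a further, dimmer probe that was well above background on no array.

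Between genotypes, no potassium channel gene passed the test. Limma was run on 15681 features, of which 0 (0%) had an adjusted p under 0.05, and 0 of the 37 tested members did, each with an adjusted p of at least 0.9997. An unadjusted limma p under 0.05 occurred in 2 of the 37 members (5.41%), Kcns3 and Kcnc4, each tested only through its brighter group, and in 2.44% of all features. The 4 PKR2 arrays lay wholly above or below the 4 WT arrays in 0 of 37 members and in 1.62% of all features (0.753% above, 0.867% below). Values were nominally higher in PKR2 hearts for 24 tested members and lower for 13 (35.1%), where 49.6% of all features were lower. With normexp background correction (offset 50) this split turned to 14 higher and 23 lower, and with array weights to 16 higher and 21 lower. For the 25 members on all 8 arrays it was 16 higher and 9 lower, 14 and 11 with normexp, and 9 and 16 with array weights. The same normexp offset was used on arrays of unlike signal level, and its part in this was not tested. The median difference was 0.06 over the tested members and 0.0015 over all features.

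The other 46 members were not tested because neither group had the probe well above background on 3 arrays. Of these, 22 were detected on at least 1 array, including Kcnc1, Kcnc2, Kcnh3, Kcnq3 and Kcnq5 among pore-forming genes, Kcne2, Kcnip1 and Kcnip3 among accessory genes, Kcnj2, Kcnj6, Kcnj10 and Kcnj14 among inward rectifiers, Kcnk1, Kcnk2, Kcnk4, Kcnk7, Kcnk10 and Kcnk12 among tandem-pore genes, and Kcnmb1, Kcnn3 and Kcnu1 among the activated channels. A gene that passed the filter only through the group where it was brighter had to differ, so counts over the 37 describe them and nothing more. Kcnc4, Kcne3, Kcnj5, Kcnj9 and Kcnt1 passed it through the PKR2 arrays alone and Kcns3 through the WT arrays alone. Kcnj9 was not brighter there, with a mean of -4.24 in PKR2 and -4.14 in WT hearts. No unadjusted or exact p is given beside the differences of these genes. The 25 members on all 8 arrays carry no such choice. Their differences ran from -0.56 (Kcnab1) to 0.32 (Kcng2), 21 of 25 lay within 0.30 of 0, and the median half-width of their 95% intervals was 0.50.

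**Figure D2:**
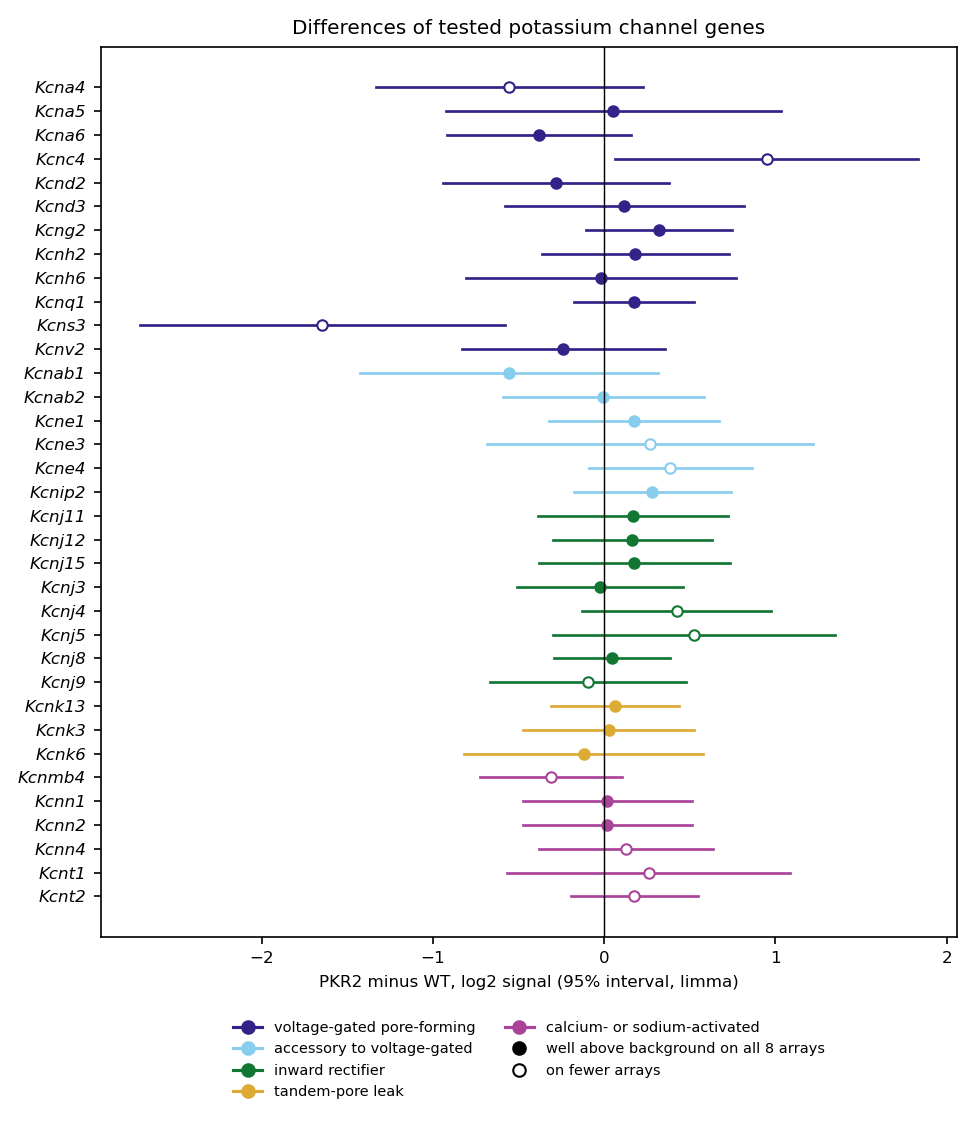
Difference of PKR2 minus WT hearts in log2 signal with its 95% interval from limma for 35 of the tested potassium channel genes, coloured by family. Filled points mark the 23 genes well above background on all 8 arrays. The intervals of Kcns3 and Kcnc4 lie apart from 0 before adjustment, and those of the other genes drawn cross it. The filter favours such a gap in both, because each was tested only through its brighter group.

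The transient outward current of mouse ventricle is carried by Kv4 channels, whose pores are encoded by Kcnd2 and Kcnd3. Signal of Kcnd2 was 2.16, 3.25, 3.35 and 2.71 in WT 1 to WT 4 and 2.21, 3.11, 2.63 and 2.41 in PKR2 1 to PKR2 4. WT 1 and PKR2 1 were the lowest arrays and the groups overlapped throughout. Its difference of PKR2 minus WT was -0.28 (SE 0.29, exact permutation p = 0.429). It was -0.57 with array weights and -0.51 with slide as a fixed block (limma adjusted p = 0.466 and 0.756), and 0.43 with the position covariate. The fixed block leaves the difference to WT 3, WT 4, PKR2 3 and PKR2 4, the arrays on slides that held both groups. The pore gene Kcnd3 had -2.50, -1.05, -1.04 and -1.25 in WT 1 to WT 4 and -1.43, -1.52, -1.15 and -1.26 in PKR2 1 to PKR2 4. WT 1 alone lay far below, and the difference of 0.12 (SE 0.31, exact permutation p = 0.971) turned to -0.23 without WT 1 and was 1.16 (adjusted p = 0.832, limma) with array position as a covariate, which rests on WT 1 for the WT side. Kcnip2 encodes the KChIP2 protein, which binds Kv4 channels and raises their density at the membrane in mouse ventricle. Its signal was 0.61, 0.10, 0.29 and -0.01 in WT 1 to WT 4 and 0.97, 0.51, 0.30 and 0.34 in PKR2 1 to PKR2 4. Here WT 1 and PKR2 1 were the highest arrays, the reverse of Kcnd2. The means were 0.25 ± 0.27 for WT and 0.53 ± 0.31 for PKR2 hearts and the difference 0.28 (SE 0.21, exact permutation p = 0.229). Kcna4, the pore of the slow transient outward current, had -3.21, -3.46, -2.92 and -3.55 in WT 1 to WT 4 and -3.42, -4.96, -3.66 and -3.31 in PKR2 1 to PKR2 4. The PKR2 2 value was the lowest, and the difference was -0.55 (SE 0.35, exact permutation p = 0.229). This probe was well above background on 3 WT and 3 PKR2 arrays. PKR2 2 lay under the lowest signal well above background on its array (-4.05), so its value is an upper limit that the difference takes as measured.

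**Figure D3:**
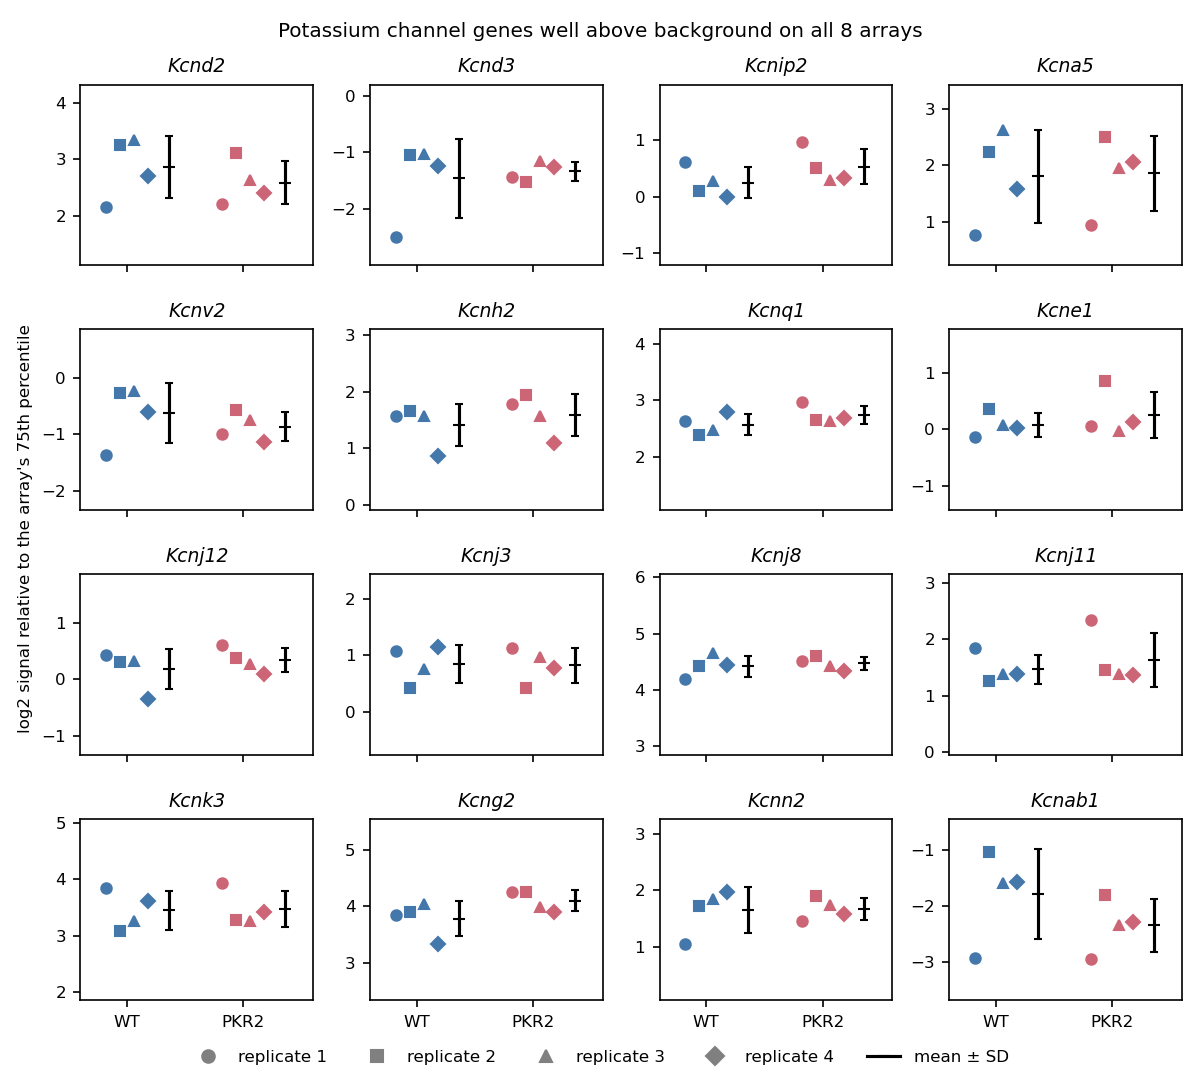
Log2 signal above or below the 75th percentile of its array (vertical axes, each panel 3.2 units high) of 16 potassium channel genes on the 4 WT and 4 PKR2 arrays, with marker shapes for replicate numbers that pair no mice and bars for mean ± SD. WT 1 and PKR2 1 lie together at the low end in Kcnd2, Kcna5 and Kcnab1 and at the high end in Kcnip2, Kcnj11 and Kcnk3.

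Kcna5 encodes the Kv1.5 pore of a slower repolarising current of mouse ventricle. Signal of Kcna5 was 0.76, 2.24, 2.63 and 1.59 in WT 1 to WT 4 and 0.93, 2.49, 1.95 and 2.05 in PKR2 1 to PKR2 4. The lowest array of either group, again WT 1 and PKR2 1, lay well below the rest of its group, and the groups overlapped. The difference of 0.05 (SE 0.44, exact permutation p = 0.943) had a 95% interval of -0.92 to 1.03.

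The genes for silent Kv subunits, which form no channel alone and modify other Kv channels, include Kcng2, Kcnv2 and Kcns3. For Kcng2 the signal was 3.85, 3.90, 4.05 and 3.33 in WT 1 to WT 4 and 4.26, 4.25, 4.00 and 3.89 in PKR2 1 to PKR2 4. WT 4 was the lowest array, and WT 2 and WT 3 lay among the PKR2 arrays. The difference was 0.32 (SE 0.19, exact permutation p = 0.171), with -0.05 within slide 5 and 0.57 within slide 6. Kcnv2 differed by -0.24 (SE 0.26, exact permutation p = 0.429), with WT 1 at -1.37 and the other WT arrays between -0.61 and -0.24. Kcns3 is described last.

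The genes of hERG and KvLQT1 had overlapping groups. Kcnh2, the pore of the rapid delayed rectifier, had 1.57, 1.65, 1.57 and 0.86 in WT 1 to WT 4 and 1.78, 1.95, 1.56 and 1.09 in PKR2 1 to PKR2 4. WT 4 was the lowest, and the difference of 0.18 (SE 0.24, exact permutation p = 0.514) became -0.0028 without that array. Kcnq1, the pore of the slow delayed rectifier, had 2.63, 2.38, 2.47 and 2.78 in WT 1 to WT 4 and 2.97, 2.65, 2.63 and 2.69 in PKR2 1 to PKR2 4. All arrays lay within a narrow range, with PKR2 1 highest, and the difference was 0.17 (SE 0.16, exact permutation p = 0.2). Kcne1, its accessory subunit, had -0.13, 0.37, 0.08 and 0.02 in WT 1 to WT 4 and 0.07, 0.86, -0.03 and 0.13 in PKR2 1 to PKR2 4. PKR2 2 stood highest, the difference was 0.17 (SE 0.22, exact permutation p = 0.6), and it was -0.03 without PKR2 2. Kcnh6, a relative of hERG, differed by -0.02 (SE 0.35, exact permutation p = 1.0).

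Kcna6, a Kv1 pore gene, had 0.02, -0.58, -0.50 and -0.21 in WT 1 to WT 4 and -0.16, -1.19, -0.85 and -0.59 in PKR2 1 to PKR2 4. PKR2 2 was lowest and the groups overlapped, with a difference of -0.38 (SE 0.24, exact permutation p = 0.2) that was -0.36 within slide 5 and -0.38 within slide 6. Kcnab1 and Kcnab2 encode beta subunits of Kv1 channels. Kcnab1 had the lowest difference of the members on all 8 arrays, -0.56 (SE 0.39, exact permutation p = 0.229), with -0.74 within slide 5 and -0.72 within slide 6. WT 1 and PKR2 1, at -2.93 and -2.94, were its 2 lowest arrays, while the others lay between -2.34 and -1.05. Kcnab2 differed by -0.00 (SE 0.26, exact permutation p = 0.971).

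Kcnc4, the pore of a rapidly inactivating Kv3 channel, had -4.46, -3.37, -5.16 and -4.63 in WT 1 to WT 4 and -3.89, -3.30, -2.72 and -3.90 in PKR2 1 to PKR2 4. Its probe (chr3:107566702-107566761, mm8) was well above background on 4 of 4 PKR2 arrays and 0 of 4 WT arrays, yet WT 2 lay above PKR2 1 and PKR2 4. Mean signal was at least 1.55-fold higher in PKR2 hearts. That bound allows for dim WT signal but not for the spread between arrays. The measured means were -4.40 ± 0.75 for WT and -3.45 ± 0.56 for PKR2 hearts. Kcnc4 was tested only through the PKR2 arrays, where it was brighter. The limma difference was 0.95 (SE 0.39) with an adjusted p of 0.9997, taken against WT values that were all not well above background. With the WT signal raised to that floor it was at least 1.76 on the log2 scale within slide 5 and 0.72 within slide 6. The fitted difference was 0.28 in the authors' deposited values, and -0.49 with normexp. Kcne4, an accessory subunit that dampens Kv1 and Kv7 currents, had -2.58, -3.39, -3.29 and -3.02 in WT 1 to WT 4 and -2.64, -2.87, -2.36 and -2.87 in PKR2 1 to PKR2 4. The groups overlapped, the difference was 0.39 (SE 0.21, exact permutation p = 0.143), and it was -0.35 with normexp. Kcne4 was well above background on 4 PKR2 and 3 WT arrays, not on WT 2, its lowest array. Kcne3, a further member of that accessory family, differed by 0.27 (SE 0.42) and was detected on 1 WT and 3 PKR2 arrays.

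The inward rectifiers were represented on all 8 arrays by genes of the ATP-sensitive, acetylcholine-gated and strong rectifier channels. Kcnj8, the Kir6.1 pore found in vascular mural cells, had 4.19, 4.42, 4.65 and 4.44 in WT 1 to WT 4 and 4.51, 4.60, 4.43 and 4.34 in PKR2 1 to PKR2 4. The arrays differed little. The means were 4.42 ± 0.19 for WT and 4.47 ± 0.11 for PKR2 hearts, a difference of 0.05 (SE 0.15, exact permutation p = 0.714) with a 95% interval of -0.29 to 0.38. A further probe of the gene ran the other way at -0.04. Kcnj11, the Kir6.2 pore of cardiomyocytes, had 1.85, 1.26, 1.38 and 1.38 in WT 1 to WT 4 and 2.34, 1.45, 1.38 and 1.37 in PKR2 1 to PKR2 4. PKR2 1 was highest and WT 1 next, and the difference of 0.17 (SE 0.25, exact permutation p = 0.543) was -0.07 without PKR2 1. Abcc9 and Abcc8 encode the sulfonylurea receptors that complete these channels, and their signals differed by 0.15 (SE 0.18) and 0.10 (SE 0.16).

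Kcnj12, the Kir2.2 strong rectifier, had 0.42, 0.30, 0.33 and -0.36 in WT 1 to WT 4 and 0.61, 0.38, 0.26 and 0.10 in PKR2 1 to PKR2 4. WT 4 was lowest, with the difference at 0.16 (SE 0.21, exact permutation p = 0.571) and at -0.01 without WT 4. Kcnj2, the Kir2.1 strong rectifier, had -5.12, -4.93, -3.28 and -3.16 in WT 1 to WT 4 and -2.29, -4.12, -4.00 and -6.49 in PKR2 1 to PKR2 4. Its probe was well above background on 2 of 4 arrays in both groups, so it was not tested and its dim values have no reliable order. Kcnj4, the Kir2.3 rectifier, had -2.97, -3.74, -2.92 and -2.72 in WT 1 to WT 4 and -2.50, -3.08, -2.45 and -2.64 in PKR2 1 to PKR2 4. The difference was 0.42 (SE 0.25, exact permutation p = 0.171), and it was -0.54 with normexp. Kcnj4 was well above background on 4 PKR2 and 3 WT arrays, not on WT 2, its lowest array. Kcnj15 differed by 0.18 (SE 0.25, exact permutation p = 0.571) and Kcnj9 by -0.10 (SE 0.26).

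Acetylcholine-gated channels of the atria and nodes are built from the Kcnj3 and Kcnj5 proteins. Kcnj3 had 1.07, 0.41, 0.75 and 1.13 in WT 1 to WT 4 and 1.12, 0.41, 0.96 and 0.78 in PKR2 1 to PKR2 4. WT 2 and PKR2 2 were the lowest arrays and the groups overlapped. The difference was -0.02 (SE 0.22, exact permutation p = 0.914) at this probe and 0.23 at another. Its partner Kcnj5 had -3.76, -4.67, -4.04 and -4.97 in WT 1 to WT 4 and -2.85, -4.15, -4.32 and -4.03 in PKR2 1 to PKR2 4. This probe was well above background on 2 WT and 3 PKR2 arrays, with PKR2 1 the highest. The difference was 0.52 (SE 0.37) and was -0.64 with normexp. The list of 7 atrial cardiomyocyte markers had a median difference of -0.04, with scores of -0.25 to 0.28 in WT and -0.26 to 0.42 in PKR2 hearts.

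Leak channels of the tandem-pore family pass a background current. Kcnk3, the acid-sensitive TASK-1 channel, had 3.84, 3.08, 3.25 and 3.61 in WT 1 to WT 4 and 3.94, 3.28, 3.26 and 3.41 in PKR2 1 to PKR2 4. WT 1 and PKR2 1 were the highest arrays, and the difference of 0.03 (SE 0.22, exact permutation p = 0.886) had a 95% interval of -0.47 to 0.52. Kcnk2, the stretch-sensitive TREK-1 channel, had -5.34, -4.36, -5.56 and -5.75 in WT 1 to WT 4 and -4.84, -5.16, -5.31 and -5.45 in PKR2 1 to PKR2 4. It was well above background on PKR2 1 alone and was not tested. Kcnk6 differed by -0.12 (SE 0.31, exact permutation p = 0.743) and Kcnk13 by 0.06 (SE 0.17, exact permutation p = 0.657).

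Of the calcium-activated genes, the small-conductance channels Kcnn1 and Kcnn2 differed by 0.02 (SE 0.22, exact permutation p = 0.914) and 0.02 (SE 0.22, exact permutation p = 0.914). A further Kcnn2 probe, dimmer but also well above background on all 8 arrays, differed by 0.39. Kcnmb4, an accessory BK subunit known from neurons, had -2.81, -2.86, -2.22 and -2.83 in WT 1 to WT 4 and -3.13, -3.02, -2.75 and -3.05 in PKR2 1 to PKR2 4. WT 3 was the highest array, the groups overlapped, and the difference was -0.31 (SE 0.18, exact permutation p = 0.114). The intermediate-conductance Kcnn4 differed by 0.13 (SE 0.23, exact permutation p = 0.514). The sodium-activated Kcnt1 and Kcnt2 differed by 0.26 (SE 0.37) and 0.17 (SE 0.17, exact permutation p = 0.257). Kcnmb4, Kcnn4 and Kcnt2 were each well above background on 7 arrays and Kcnt1 on 4.

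Kcns3 had the largest nominal difference among the tested members. It encodes a silent subunit that alters the currents of other Kv channels, and its probe lies at chr12:11117253-11117312 (mm8). Its signal was -2.04, -2.59, -4.01 and -2.78 in WT 1 to WT 4 and -5.55, -4.68, -3.98 and -3.78 in PKR2 1 to PKR2 4. As measured, PKR2 1 and PKR2 2 were lowest, and WT 3 lay at the level of PKR2 3 and PKR2 4, so that the groups overlapped. Kcns3 was well above background on 4 of 4 WT and 2 of 4 PKR2 arrays, not on PKR2 1 or PKR2 2, so it was tested only through the group where it was brighter. The lowest signals well above background on PKR2 1 and PKR2 2 were -5.42 and -4.05, so the Kcns3 values there set only upper limits. At its limit PKR2 2 lay close to WT 3 and PKR2 3. Means of the values as measured were -2.85 ± 0.83 for WT and -4.50 ± 0.80 for PKR2 hearts. Their difference was -1.65 (SE 0.48) with a limma adjusted p of 0.9997. Within slides 5 and 6 the difference was 0.03 and -1.01.

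The adipocyte marker score was lowest on PKR2 1 and PKR2 2, the arrays on which Kcns3 was not well above background. The score was 1.21, 1.14, -0.05 and 1.14 on WT 1 to WT 4 and -2.23, -1.99, 0.46 and 0.32 on PKR2 1 to PKR2 4. All 8 tested adipocyte markers were nominally lower with PKR2 overexpression (median difference -1.95), and Lep, the ninth marker on the array, was well above background on 2 arrays. With that score as a covariate the Kcns3 difference was -0.58, without PKR2 1 and PKR2 2 it was -1.03, and in the authors' deposited values it was -0.50. Without WT 1 and PKR2 1 it was -1.02. The score is the mean over its markers, and the Kcns3 values on PKR2 1 and PKR2 2 are only upper limits. The part of the score in the difference was not tested beyond these values.

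**Figure D4:**
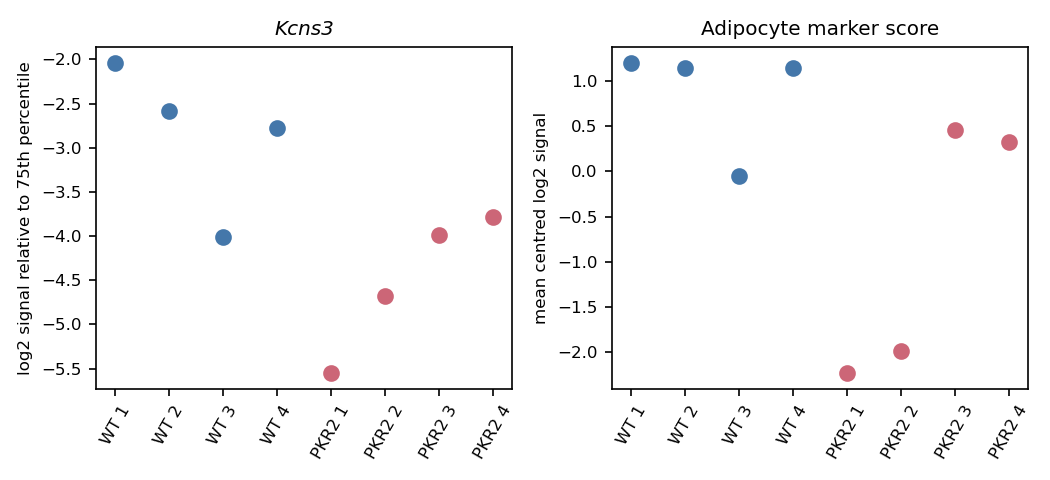
Log2 signal of Kcns3 relative to the 75th percentile (left) and the adipocyte marker score, the mean centred log2 signal of 8 markers (right), on each array, WT in blue and PKR2 in red. PKR2 1 and PKR2 2 are lowest in both panels, at -5.55 and -4.68 for Kcns3 and -2.23 and -1.99 for the score. Kcns3 was not well above background on either array, so its order there is uncertain.

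The variation shared by WT 1 and PKR2 1 crossed the genotypes and reached many members. Both arrays lay below the other 6 in 5 of the 25 members on all 8 arrays (Kcna5, Kcnab1, Kcnd2, Kcnk6 and Kcnn2) and above them in 7 (among them Kcna6, Kcnip2, Kcnj11, Kcnj12, Kcnk3 and Kcnn1). This share of 48% compares with 37.6% of all features on all 8 arrays, and it was counted after the values were seen. The scaffold gene Dlg1, chosen for naming in the same way, was 3.03 on WT 1 and 3.05 on PKR2 1 against 3.36 to 4.21 elsewhere. When both arrays were left out, 0 members passed, 22 of the 37 were nominally higher and 15 lower, and the median difference was 0.01 beside -0.03 over all features. Per the file headers both were scanned over an extended range and had the same clock time of extraction, to the minute. Arrays that share this time are called an extraction run here, a grouping the headers do not name. No other array had that combination of range and run, and both sat at position 4 with all the PKR2 arrays. The part of scan range, run and position in their likeness was not tested.

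Genes that act with the channels were also read from the same fit, and 0 passed. Of 27 channel partners, 24 were on the array and 21 tested, 14 nominally higher and 7 lower with PKR2 (median difference 0.08). Dpp10, which encodes an accessory protein of Kv4 channels, was -3.001, -2.35, -3.21 and -3.45 on WT 1 to WT 4 and -1.42, -2.28, -2.63 and -1.97 on PKR2 1 to PKR2 4. WT 2 overlapped with the PKR2 arrays, and the difference was 0.93 (SE 0.30, limma adjusted p = 0.9997). Cttn, which encodes cortactin and binds Kv channels to actin, differed by 0.50 (SE 0.25), and Tmem38b, a counter-ion channel of the sarcoplasmic reticulum, by 0.21 (SE 0.20). Sodium-potassium pumps and potassium cotransporters had 12 tested genes, 9 nominally higher and 3 lower, at a median of 0.04. The 14 tested transcription factors that regulate cardiac channel genes split into 7 higher and 7 lower, at a median of -0.0040.

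Genotype differences within the slides that held both groups varied in sign. Slides 5 and 6 gave opposite signs for 19 of the 37 tested members, and both slides gave the sign of the pooled difference for 15. Among members on all 8 arrays this held for 9 of 25. The pooled difference includes the arrays of both slides. The same counts were not made over all features, so these describe the members and nothing more. The number of arrays limits the precision, and the median 95% interval over all tested features reached 0.48 to either side.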

How the data were processed

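Heart RNA of 8 mice was measured on 8 Cy3 arrays, 4 WT and 4 PKR2. Per the file headers, Agilent Feature Extraction 9.5.1.1 read the images and background-subtracted and detrended the deposited spot intensity values (mm8 probe positions). The authors' deposited table also holds intensity, whose normalization is unknown here. This table was read as linear and uncentred and has column medians of 139 to 144. It served as an alternative.

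Control and outlier-flagged spots were left out, spots of a probe averaged, and each array's 75th percentile of log2 processed signal subtracted. The probe of highest mean signal stood for each gene name. A feature was tested if well above background on at least 3 of 4 arrays of a group, with limma 3.58.1 (lmFit and eBayes, no covariate, Benjamini-Hochberg over 15681 features, threshold 0.05), checked on simulated data. Single-gene exact permutation p-values are two-sided over 70 relabelings. At least N-fold means the brighter group against, on every array, whichever is higher of its own signal and the lowest signal well above background.

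All members matched a RefSeq gene table by accession (71) or symbol (12). Some genes that the naming rules pick are not reported here. Full values are given for a set of cardiac repolarisation genes and the 5 tested members of smallest p per direction. The members and lists were chosen with earlier results of these data known. Alternatives covered background correction, normalization, filters, probe choice, slide, position, scan range, extraction run, variance model and left-out arrays. Others were chosen after seeing the data, namely normexp after common scaling, an adipocyte covariate, and leaving out PKR2 1 with either PKR2 2 or WT 1.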

Additional observations from a re-analysis of the deposited data

Results flagged for a closer look

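In 46 groups of 4 arrays, formed from the members described with full values, 6 groups held an array whose gap to its nearest neighbour exceeded Dixon's 95% critical value as a share of the group's range. Chance gives about 1 in 20 groups. WT 1 lay below the other WT arrays in Kcnd3 at -2.50. WT 4 lay below the other WT arrays in Kcnh2 at 0.86 and in Kcnj12 at -0.36. PKR2 1 lay above the other PKR2 arrays in Kcnq1 at 2.97 and in Kcnj11 at 2.34. WT 3 lay above the other WT arrays in Kcnmb4 at -2.22.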

How the results depend on the processing

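Under all 28 alternatives 0 potassium channel genes passed the threshold. The count over all features was 1 with median scaling, with features well above background on all 8 arrays, with slide as a random block, with an array position covariate and with a trended robust variance, and 0 to 1 with single arrays left out. The median difference of the members was -0.40 with normexp, -0.18 with normexp after scaling to a common level, -0.053 with array weights, -0.053 with the adipocyte score as a covariate and -0.041 without PKR2 1 and PKR2 2, against 0.062. Over the members on all 8 arrays the median was 0.17 with normexp and 0.059 with normexp after that scaling, against 0.046. Detection on all 8 arrays rose to 41 members with the looser flag. Of 581 recomputed differences of the 21 tested genes described in full, 504 kept their sign and 77, in 15 genes, did not. Kcna4, Kcna6, Kcng2, Kcnmb4, Kcnq1 and Kcns3 had no reversal. Normexp gave 0.070 for Kcnd2, -0.40 for Kcnd3, 0.20 for Kcnj3, -0.64 for Kcnj5, -0.49 for Kcnc4, -0.35 for Kcne4 and -0.54 for Kcnj4. The array position covariate gave 0.43 for Kcnd2, -0.085 for Kcnip2, -0.083 for Kcnj12, -0.077 for Kcnj5, -0.21 for Kcnj11, -0.37 for Kcnk3 and -0.10 for Kcne4. Slide as a fixed block gave -0.060 for Kcnd3, -0.11 for Kcna5, -0.0020 for Kcne1, -0.16 for Kcnj8, -0.0064 for Kcnj11 and -0.10 for Kcnk3. Differences from that fit rest on WT 3, WT 4, PKR2 3 and PKR2 4 alone, because no other slide held arrays of both groups. Array weights gave -0.022 for Kcnd3, -0.20 for Kcna5, -0.10 for Kcnh2, -0.053 for Kcne1, -0.0068 for Kcnj12, 0.13 for Kcnj3 and -0.091 for Kcnj8. Normexp after common scaling gave -0.33 for Kcnd3, 0.16 for Kcnj3, -0.34 for Kcnj5, -0.11 for Kcnc4, -0.056 for Kcne4 and -0.25 for Kcnj4. Leaving out WT 1 and PKR2 1 gave -0.20 for Kcnd3 and -0.045 for Kcnj8. Median scaling gave -0.0087 for Kcna5, -0.017 for Kcnj8 and -0.037 for Kcnk3. Slide as a random block gave -0.0013 for Kcna5, -0.024 for Kcnj8 and -0.017 for Kcnk3. Extraction run as a block gave -0.23 for Kcna5, -0.024 for Kcne1, 0.12 for Kcnj3 and -0.012 for Kcnj8. The adipocyte covariate gave -0.16 for Kcnh2, -0.053 for Kcne1, -0.064 for Kcnj12, 0.046 for Kcnj3, -0.12 for Kcnj8, -0.13 for Kcnj11 and -0.10 for Kcnk3. Leaving out PKR2 1 and PKR2 2 gave -0.088 for Kcnh2, -0.036 for Kcne1, 0.027 for Kcnj3, -0.041 for Kcnj8, -0.094 for Kcnj11 and -0.11 for Kcnk3. The authors' deposited values gave 0.064 for Kcnj3. The mean of all tested probes gave 0.10 for Kcnj3. Scan range as a block gave -0.012 for Kcnk3. Leaving out each array in turn gave ranges of -0.23 to 0.26 for Kcnd3, -0.29 to 0.36 for Kcna5, -0.0028 to 0.35 for Kcnh2, -0.030 to 0.27 for Kcne1, -0.013 to 0.25 for Kcnj12, -0.17 to 0.11 for Kcnj3, -0.031 to 0.12 for Kcnj8, -0.068 to 0.29 for Kcnj11 and -0.13 to 0.16 for Kcnk3. The cause of these changes was not tested. Of the 504 values that kept their sign, 157 moved by over 1.5 times, among them Kcnd3 at 1.16 with the position covariate and Kcnd2 at -0.57 with array weights and -0.51 with slide as a fixed block. No paired analysis was possible because the labels give the mice no shared replicate numbers, and slide, which WT 3 shares with PKR2 3 and WT 4 with PKR2 4, was fitted as a block instead. Signals near background limit what can be said of dim probes.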
